A study of Mus musculus with 26 samples.

Results

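Central regulatory T cells (cTreg) were compared with naive conventional CD4+ T cells (Tnaive) by poly(A) RNA-seq, using 4 of the 26 libraries of the series, 2 for each population, and all 24411 genes of the count table. The libraries were taken by their labels, with no filter on a measured value. The comparison and the gene lists were chosen with earlier results of these data known. Spleen and lymph nodes of C57BL6/J mice were the source of both populations. The genotype was Foxp3-IRES-hCD2, in which human CD2 (hCD2) on the cell surface reports transcription of Foxp3, the factor that defines the regulatory lineage. The cTreg gate was CD4+hCD2+CCR7hiCD62LhiCD44lo and the Tnaive gate was CD4+hCD2-CCR7hiCD62LhiCD44lo. The gates thus differed in the reporter and shared the 3 surface markers of resting, recirculating T cells. Effector Treg (eTreg, hCD2+CCR7loCD62Llo) and effector T cells (Teff, hCD2-CCR7loCD62Llo) of the same genotype, and unfractionated WT Treg (CD4+hCD2+) and Tconv (CD4+hCD2-), are used below only to place the comparison. All of these groups carry the reporter allele, and none was treated. The labels give neither the age nor the number of mice. Whether 2 libraries of one group are from different mice is not stated either, so the spread between libraries of a group may be technical. The p-values measure only spread of that kind, estimated over all 26 libraries in 13 groups and not from cTreg and Tnaive alone. The groups not named above are BATFKO, Foxp3R397W and Foxp3KO Treg, WT controls of the Foxp3 mutants, and BATFcKO and WT Treg labelled YFP. The spread between libraries was not equal across groups, as given below for WT Treg and Tconv.

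Regulatory T cells restrain other lymphocytes and depend on interleukin-2 (IL-2), which they bind through a high-affinity receptor but make little of themselves. The IL-2 receptor signals through JAK kinases and STAT5, and CIS and SOCS proteins are among the STAT5 targets that feed back on it. Central Treg circulate through lymphoid organs like naive T cells and have not taken on the tissue-homing and effector features of eTreg. The comparison with Tnaive therefore addresses which transcripts go with the regulatory lineage when the surface phenotype of resting cells is held in common.

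The 4 libraries held 9774025 to 10641332 counted reads, and the 2 libraries of a population correlated at 0.997 (cTreg) and 0.996 (Tnaive) over log-scale levels of the genes tested. Levels are given in CPM, read counts relative to the library total after scaling for library composition. Sizes of gene lists below count the members with enough reads for testing. Foxp3, the check of the labels, stood at 519.7 and 540.3 CPM in cTreg and at 2.34 and 3.20 CPM in Tnaive, so that the Tnaive mean was 0.522% of the cTreg mean. Ccr7, the gene of a marker that both gates share, was at 431 and 428 CPM in cTreg and 642 and 655 CPM in Tnaive (adjusted p = 0.333). Cd44 was at 73.9 and 77.4 CPM in cTreg and 52.3 and 44.5 CPM in Tnaive, a log2 fold change of 0.64 ± 0.14 (adjusted p = 0.00346) within a gate set on low CD44, against a mean of 497 ± 14.7 CPM (SD, n = 2) in Teff. The Cd44 call was lost without the second Tnaive library (adjusted p = 0.0828). Of the T cell identity genes, Cd4 was lower in cTreg (723 and 723 against 1183 and 1141 CPM) and Cd3e did not pass the test (577 and 645 against 672 and 700.1 CPM). Summed CPM of B cell markers were 40.6 and 44.2 in cTreg and 32.2 and 31.9 in Tnaive. Those of myeloid and dendritic markers were 135 and 124 against 116 and 105, and those of CD8 and NK markers 28.5 and 32.4 against 35.3 and 36.9. Of the listed markers 0 of 17, 1 of 22 and 7 of 19 had no read in the 4 libraries, and 8, 13 and 13 stayed under 1 CPM in each of them. Erythroid and platelet markers summed to 8.18 to 13.6 CPM with the globin genes at 0, and the stromal and endothelial sum of 275 to 285 CPM had 17 of 19 markers under 1 CPM. The part of such cells in the results was not tested. In bulk libraries, fewer cells that carry a transcript and less of it per cell cannot be told apart.

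Of 12227 genes with enough reads for testing, 967 (7.91%) were called higher and 525 (4.29%) lower in cTreg than in Tnaive, at an adjusted p below 0.05 (edgeR quasi-likelihood test, Benjamini-Hochberg over all tested genes). At least 2-fold differences were called for 589 genes in the higher direction (4.82%) and 223 in the lower (1.82%). Genes that were higher in cTreg also reached larger differences: 123 of the 967 had a log2 fold change of at least 4, against 15 of the 525 lower genes, and the median log2 fold changes were 1.29 and -0.85. Tnaive had no read at all for 42 of the higher genes and 1 to 3 reads for 54, whereas cTreg had no read for 3 of the lower genes. The median over all tested genes was 0.00. For each of the 967 higher genes both cTreg libraries lay above both Tnaive libraries, an order that 29.3% of all tested genes showed. The genes were called on these same libraries, so the order is no separate support for the calls. The count of lower genes rested on each of the libraries: it was 303 and 282 without the first and second cTreg library and 318 and 329 without the first and second Tnaive library.

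**Figure D1:**
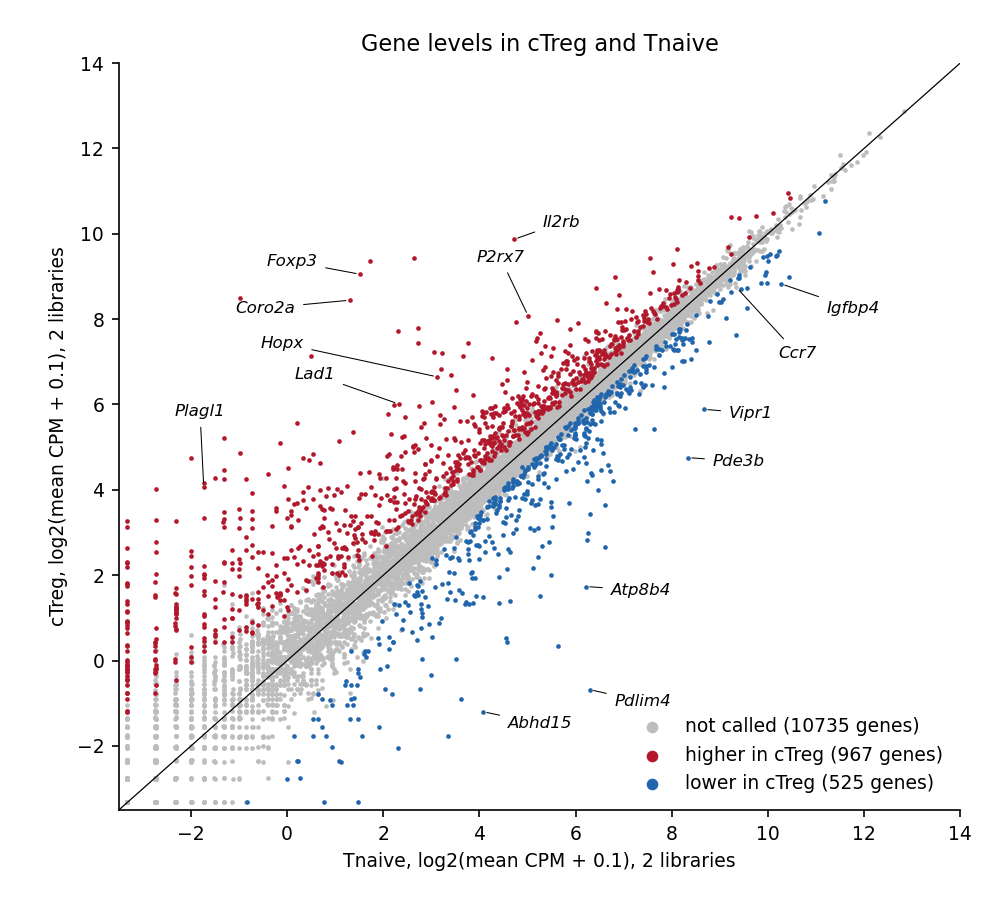
Mean level of each tested gene in Tnaive (horizontal) and cTreg (vertical), both as log2(CPM + 0.1) over 2 libraries, with genes called higher in cTreg in red (967), lower in blue (525) and not called in grey (10735). Il2rb and Foxp3 lie far above the diagonal at high cTreg levels, and Pde3b, Atp8b4 and Pdlim4 far below it.

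Transcription factors separated the populations in both directions. Next to Foxp3 (chrX:7573644-7595245, mm10; log2 fold change 7.57 ± 0.22, adjusted p = 3.16e-14), the Ikaros family members Ikzf2, which encodes Helios, and Ikzf4, which encodes Eos and works with FOXP3 in gene silencing, were among the strongest. Ikzf2 (chr1:69531214-69687245) stood at 697 and 676 CPM in cTreg against 5.30 and 6.89 CPM in Tnaive, and Ikzf4 (chr10:128630843-128645991) at 183 and 162 against 14.1 and 12.8 CPM. The other Ikaros genes did not follow one direction, since Ikzf3 (Aiolos) was higher (394 and 385 against 185 and 187 CPM) and Ikzf1 (Ikaros) lower (712 and 708 against 1160.1 and 1147 CPM). Irf4, a factor of the T cell receptor response that eTreg need, was at 40.9 and 48.9 CPM in cTreg and 14.2 and 15.6 CPM in Tnaive, below its eTreg mean of 147 ± 6.23 CPM. Of 41 transcriptional regulators known from Treg work, 11 were higher and 6 lower in cTreg, or 41.5% called against 12.2% of all tested genes. Their median log2 fold change was 0.06. The lower ones included Lef1 and Tcf7, the nuclear partners of beta-catenin that maintain naive T cells. Lef1 had 463 and 458 CPM in cTreg and 1018 and 995 CPM in Tnaive, and Tcf7 had 1026 and 1039 and 2066 and 2225 CPM, both near a 2-fold difference (log2 fold changes -1.13 ± 0.12 and -1.06 ± 0.11). Satb1, a chromatin organizer, was lower as well (771 and 781 against 1161 and 1236 CPM), as were Runx3 and Id2, while Id3, Maf, Gata3, Myb, Hivep2 and Hivep3 made up the rest of the higher ones. The calls of Myb and Hivep2 were lost without some of the libraries, and that of Hivep2 also without the expression filter, at adjusted p up to 0.093 and 0.326. Immediate-early orphan receptors of the Nr4a family did not pass the test: Nr4a1 was at 134 and 147 CPM in cTreg and 68.1 and 77.0 CPM in Tnaive (adjusted p = 0.25).

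Of the 20 genes with the smallest p-values, 10 in each direction, 14 have promoter windows in the RefSeq table used (build GRCm38.p6), and 5 of these hold at least 1 of 7 searched motifs on either strand (forkhead TGTTTAC, RUNX TGTGGTT, ETS CCGGAAG, TCF/LEF CTTTGAT, STAT TTCNNNGAA, NF-kB GGGACTTTC and AP-1 TGANTCA). The upstream 250 bases of 3 of them are shown, 5′ to 3′ on the gene's strand with the motif letters in capitals, because they belong to the lineage gene itself, to a second gene of the Treg core and to a gene of the opposite direction.

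Foxp3 (chrX:7580233-7580482, plus strand, ending at the base before the annotated start, TTCCAAGAA beginning 139 bases before it): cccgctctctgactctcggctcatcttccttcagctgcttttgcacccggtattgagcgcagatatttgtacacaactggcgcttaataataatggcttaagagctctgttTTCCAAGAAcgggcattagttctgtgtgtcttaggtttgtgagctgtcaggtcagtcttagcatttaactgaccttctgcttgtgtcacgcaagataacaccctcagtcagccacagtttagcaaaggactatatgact
Swap70 (chr7:110221453-110221702, plus strand, TGTTTAC beginning 107 bases before the start): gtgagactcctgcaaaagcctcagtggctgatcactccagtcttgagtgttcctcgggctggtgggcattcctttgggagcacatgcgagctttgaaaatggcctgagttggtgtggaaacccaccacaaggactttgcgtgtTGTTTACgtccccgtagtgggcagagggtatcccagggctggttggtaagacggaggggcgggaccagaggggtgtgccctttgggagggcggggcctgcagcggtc
Atp8b4 (chr2:126491554-126491803, minus strand, TGACTCA beginning 38 bases before the start): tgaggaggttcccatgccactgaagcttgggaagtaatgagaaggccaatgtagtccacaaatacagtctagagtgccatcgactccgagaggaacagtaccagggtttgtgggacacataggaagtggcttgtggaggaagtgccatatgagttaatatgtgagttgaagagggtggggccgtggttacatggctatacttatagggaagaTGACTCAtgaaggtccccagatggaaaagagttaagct

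The STAT letters, the palindromic form bound by STAT5 and other STAT proteins, occur in the promoter windows (250 bases before to 50 after a start) of 9.55% of all 27025 genes in that table, the forkhead letters in 4.05% and the AP-1 letters in 8.97%. A second annotated Foxp3 start has none of the 7 motifs in its window. These are matches of letters, and the expression data do not show whether a factor binds there. Swap70 (chr7:110221711-110283506), which encodes a guanine nucleotide exchange factor acting on the actin cytoskeleton, had 101 and 104 CPM in cTreg and 12.02 and 8.99 CPM in Tnaive (log2 fold change 3.29 ± 0.15). Atp8b4 (chr2:126320973-126500674), a member of the phospholipid flippase family, had 3.29 and 3.17 CPM in cTreg and 72.7 and 75.2 CPM in Tnaive (-4.51 ± 0.25).

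Among receptor genes for cytokines of the common gamma chain family, calls went in both directions. The alpha chain of the IL-2 receptor, Il2ra (chr2:11642807-11693193), was at 651 and 665 CPM in cTreg and 3.87 and 2.497 CPM in Tnaive, and the beta chain, Il2rb (chr15:78479256-78495271), at 951 and 915 and 26.4 and 25.9 CPM. The log2 fold changes were 7.69 ± 0.33 and 5.16 ± 0.22 (adjusted p = 1.3e-11 and 1.3e-11). Il7r, the IL-7 receptor chain that naive T cells need to survive, was lower in cTreg, at 208 and 191 against 678 and 622 CPM (-1.71 ± 0.29). Of 27 cytokine receptor genes, 11 were higher and 3 lower, or 51.9% called against 12.2% of all tested genes. The median log2 fold change was 0.13. Il10ra, a subunit of the IL-10 receptor, and Il12rb1, shared by the IL-12 and IL-23 receptors, were higher, at 72.6 and 75.2 against 32.0 and 27.4 CPM and 26.6 and 31.9 against 6.62 and 5.59 CPM. Both chains of the type I interferon receptor were higher by less than 2-fold, with log2 fold changes of 0.57 ± 0.09 for Ifnar1 and 0.64 ± 0.09 for Ifnar2. Il1rl1, the IL-33 receptor known from tissue Treg, had 30 and 41 reads in cTreg and none in Tnaive, at least 22.6-fold higher against a floor of 3 reads over the Tnaive group, but its cTreg level of 2.82 and 4.06 CPM compared with 111 ± 14.3 CPM in eTreg. Il18r1 did not pass the test, at 68.8 and 77.9 CPM in cTreg and 94.9 and 110.1 CPM in Tnaive.

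Some feedback regulators of STAT signalling were called higher in cTreg and others were not called. Socs2 stood at 36.9 and 37.3 CPM in cTreg and at 0.102 and 0.499 CPM in Tnaive (6.89 ± 0.47), Cish, which encodes CIS, at 251 and 239.7 against 31.4 and 22.9 CPM (3.18 ± 0.21), with Socs1 at 118 and 118 against 40.5 and 41.1 CPM (1.53 ± 0.25). The kinase gene Pim1 (297 and 303 against 101 and 130.3 CPM) and Stat5a (188 and 181 against 109.8 and 113 CPM) were higher too, and Pim2 was lower (27.0 and 34.5 against 50 and 58.1 CPM). The calls of Stat5a and Pim2 were lost without some of the libraries, at adjusted p up to 0.0814 and 0.0604. Of 22 genes of STAT and SOCS signalling, 7 were higher and 1 lower, or 36.4% called against 12.2% of all tested genes. The higher count was 15 with only the 4 libraries compared fitted, and 14 with the 8 libraries of cTreg, Tnaive, eTreg and Teff. Socs3 (289 and 296 against 206 and 226 CPM) and Jak3 (437 and 436 against 285 and 322 CPM) did not pass the test. Bcl2, which encodes an inhibitor of apoptosis and is raised by cytokine signals, was at 823 and 787 CPM in cTreg and 281 and 271 CPM in Tnaive (1.55 ± 0.16), above its means of 180.2 ± 24.9 CPM in eTreg and 139.8 ± 3.38 CPM in Teff. Of 25 genes of the BCL2 family and cell death, 11 were higher and 0 lower, or 44.0% called against 12.2% of all tested genes. An unadjusted p below 0.05 was seen for 15. Among the higher genes were the pro-apoptotic Pmaip1 (5.36 and 5.25 against 0.509 and 0.499 CPM) and Bcl2l11 (165 and 147 against 98.5 and 94.5 CPM) and the anti-apoptotic Bcl2l1 (33.8 and 38.0 against 19.6 and 16.9 CPM).

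**Figure D2:**
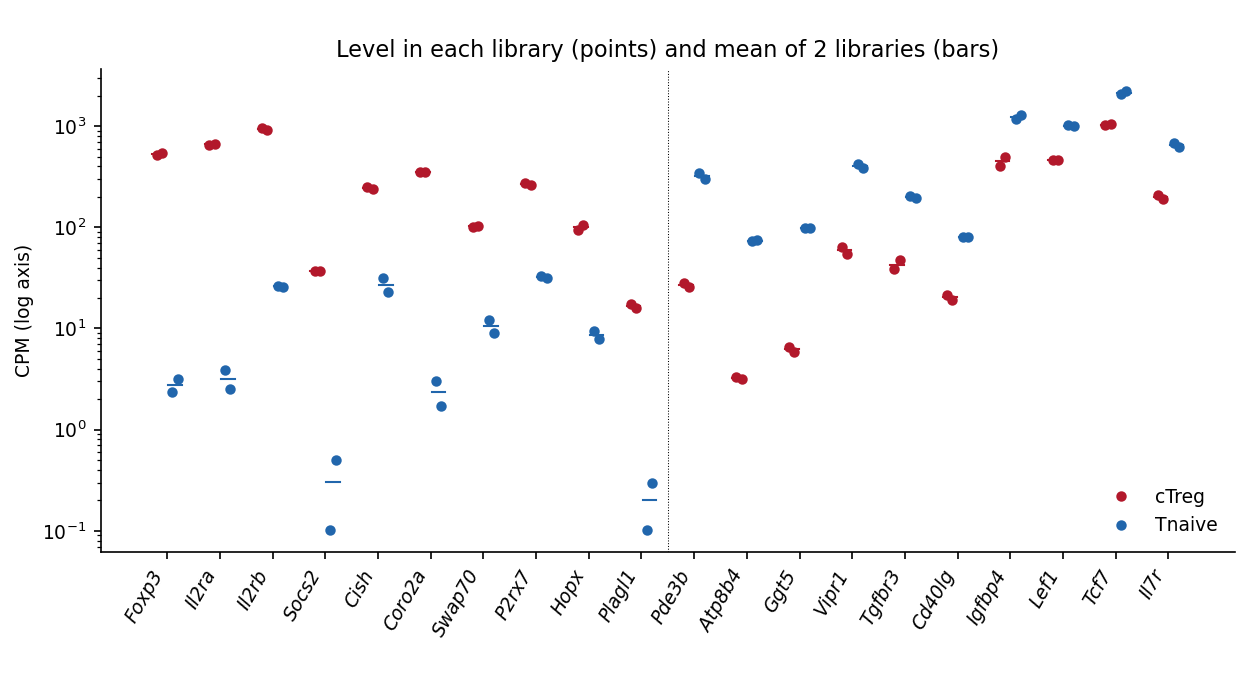
Level of 20 genes in each of the 4 libraries, in CPM on a log axis, with cTreg in red and Tnaive in blue and a bar at the mean of 2 libraries. The 2 libraries of a population lie close together beside the gap between populations, for Foxp3 to Plagl1 with cTreg above and for Pde3b to Il7r with Tnaive above.

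Treg hold latent transforming growth factor beta (TGF-beta) at their surface through GARP, the product of Lrrc32, and release it with the integrin that contains the beta 8 chain, the product of Itgb8. Lrrc32 was at 369.7 and 354 CPM in cTreg, and Tnaive had 0.815 and 0 CPM. Itgb8 had 96 and 84 reads in cTreg (9.03 and 8.32 CPM) and none in Tnaive, at least 57.4-fold higher. The partner chain Itgav and the processing protease Furin were higher by less than 2-fold, at 78.8 and 68.7 against 52.7 and 43.3 CPM and 126 and 129.8 against 74.2 and 82.8 CPM. The Furin call was lost without any of the 4 libraries and the Itgav call without 2 of them, at adjusted p up to 0.276 and 0.203, and the Itgb8 call was lost when only the 8 libraries of cTreg, Tnaive, eTreg and Teff were fitted (adjusted p = 0.0576). The cytokine gene Tgfb1 did not pass the test (227 and 233 CPM in cTreg, 187 and 176 CPM in Tnaive, adjusted p = 0.202). The receptors differed in direction, with Tgfbr1 at 119.5 and 125 against 58.6 and 53.9 CPM, Tgfbr2 at 419.6 and 410.2 against 734 and 661 CPM and the co-receptor Tgfbr3 at 38.3 and 47.1 against 202 and 195 CPM. Tgfbr3 showed the largest of these receptor differences, a log2 fold change of -2.22 ± 0.13 (adjusted p = 7.45e-10), and was lower in WT Treg than in Tconv as well (-2.46 ± 0.14). In all, 8 of 20 pathway genes were higher and 2 lower, with a median log2 fold change of 0.10. Without the second Tnaive library 4 were higher, and the median was -0.03.

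Of 14 co-inhibitory receptor genes tested, 8 were higher in cTreg and 1 lower, or 64.3% called against 12.2% of all tested genes. The higher count was 7 without the expression filter or with only the 8 sorted libraries fitted. Ctla4, which takes CD80 and CD86 away from antigen-presenting cells, was at 177 and 169 CPM in cTreg and 6.72 and 6.29 CPM in Tnaive (4.73 ± 0.25), compared with 459 ± 18.6 CPM in eTreg. Cd200, Pdcd1lg2 and Cd101 were also higher, at 47.7 and 49.9 against 10.4 and 13.6 CPM, 10.2 and 13.6 against 1.12 and 1.30 CPM and 36.6 and 34.6 against 16.3 and 16.8 CPM. Tigit, a receptor of eTreg, did not pass the test, with 1.03 and 0.991 CPM in cTreg against 252 ± 61.2 CPM in eTreg. Of 23 genes of the TNF receptor superfamily and its ligands, 10 were higher and 1 lower, or 47.8% called against the same 12.2%. The co-stimulatory receptor genes Tnfrsf4 (OX40), Tnfrsf9 (4-1BB) and Tnfrsf18 (GITR) were at 140.4 and 140.3, 65.5 and 67.4 and 219 and 219 CPM in cTreg, compared with 13.1 and 12.1, 6.42 and 9.59 and 58.6 and 58.5 CPM in Tnaive. Tnfrsf18 differed least of the 3, with a log2 fold change of 1.90 ± 0.20. The member lower in cTreg was Cd40lg, the ligand with which helper T cells engage B cells and dendritic cells, at 21.3 and 19.3 against 80.1 and 80.7 CPM (-1.98 ± 0.15, adjusted p = 1.13e-08).

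Genes that handle extracellular ATP and adenosine, and the cyclic AMP that adenosine raises in its target cells, showed both directions. The ectoenzyme genes Entpd1 (CD39) and Nt5e (CD73), whose products break ATP down to adenosine, were higher in cTreg, at 29.8 and 28.2 against 0.509 and 0.300 CPM and 179 and 178 against 38.9 and 33.5 CPM. P2rx7 (chr5:122643911-122691432), an ATP-gated ion channel, was at 275 and 263 CPM in cTreg and 33.0 and 31.5 CPM in Tnaive (3.06 ± 0.14, adjusted p = 2.22e-11). Pde3b (chr7:114415281-114539251), a phosphodiesterase that degrades cyclic AMP, had the smallest p of all lower genes, at 28.3 and 25.6 CPM in cTreg and 344 and 300.1 CPM in Tnaive (-3.58 ± 0.17, adjusted p = 2.59e-11). Pde7a and the adenylate cyclase gene Adcy7 were lower by less than 2-fold (-0.97 ± 0.16 and -0.85 ± 0.11). Pde4b and Pde4d did not pass the test (113 and 106 against 149 and 143 CPM and 109.7 and 108 against 157 and 153 CPM). Pde4a (3.10 and 2.67 against 0.713 and 0.899 CPM) and Pde1b (86.7 and 74.7 against 55.9 and 59.1 CPM) were higher, with calls lost without some of the libraries (adjusted p up to 0.0527 and 0.153). Of 23 such genes 5 were higher and 3 lower, or 34.8% called against 12.2% of all tested genes. The median log2 fold change was 0.34. The higher count was 3 without the first cTreg or the first Tnaive library. Vipr1, a receptor for vasoactive intestinal peptide that acts through cyclic AMP, was lower in cTreg as well, at 63.9 and 54.2 against 426 and 386 CPM (-2.78 ± 0.20).

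Of 39 components of T cell receptor signalling 5 were called higher and 4 lower, or 23.1% against 12.2% of all tested genes. Their median log2 fold change was -0.06. These counts were 11 and 12 with only the 4 libraries compared fitted, and 10 and 9 with the 8 sorted libraries. The higher count was 3 without the first cTreg or the first Tnaive library and 2 without the second of either. Gfi1, a zinc finger repressor, was higher, at 65.2 and 55.7 CPM in cTreg and 17.7 and 20.6 CPM in Tnaive. Themis, a thymocyte selection adaptor, was lower (87.7 and 87.1 against 202 and 183 CPM) and the adaptor Dok2 higher (145 and 145 against 89.6 and 82.2 CPM). Cblb and Dgka, negative regulators of the pathway, did not pass the test, at 250.2 and 253 against 203 and 197 CPM and 1944 and 1843 against 2188 and 2328 CPM. Of 30 genes that T cell receptor stimulation induces, 5 were higher and 0 lower in cTreg, or 16.7% called against 12.2% of all tested genes. The median log2 fold change was 0.06, and 6 had an unadjusted p below 0.05. Fitting only the 4 libraries compared gave 11 higher and 5 lower of 28, and fitting the 8 sorted libraries 8 and 3 of 30. The 5 higher genes were Rgs1 (212 and 209.6 against 2.75 and 6.89 CPM), Cd83 (26.4 and 30.8 against 1.53 and 1.20 CPM), the phosphatase gene Dusp4 (41.1 and 53.8 against 0.815 and 1.30 CPM), Egr2 (40.3 and 36.5 against 21.1 and 17.9 CPM) and Myc (192 and 195 against 104 and 121 CPM). In the NF-kB pathway 5 of 24 genes were higher and 1 lower. Rel, whose product c-Rel is needed for Treg development, was at 65.4 and 63.1 CPM in cTreg and 33.9 and 35.3 CPM in Tnaive (0.89 ± 0.13). Nfkbiz was at 221 and 194 and 83.8 and 88.3 CPM, while the paracaspase gene Malt1 was lower (123 and 118 against 191 and 177 CPM). The calls of Egr2 and Malt1 were lost without some of the libraries or with only the 8 sorted libraries fitted, at adjusted p up to 0.0627 and 0.0988. Among E3 ligase and tolerance genes, 6 of 21 were higher and 0 lower, or 28.6% called against the same 12.2% (9 had an unadjusted p below 0.05). Peli2 (chr14:48120823-48281575), a Pellino ubiquitin ligase, was higher, with 92 and 104 reads in cTreg and none in Tnaive, a difference of at least 62.5-fold.

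**Figure D3:**
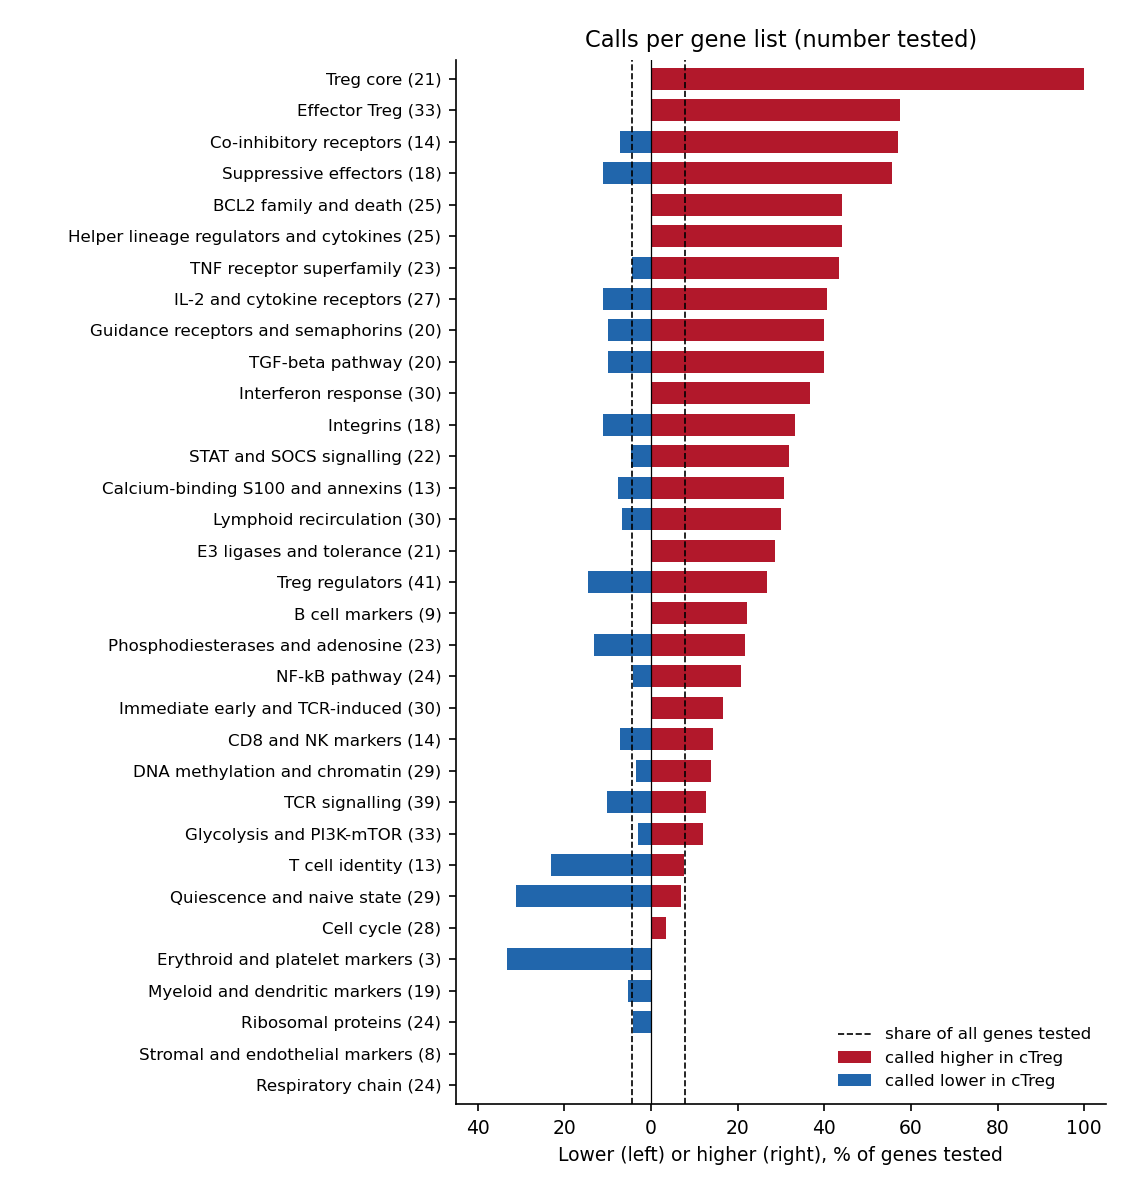
Share of the tested genes of each list called higher (red, right) or lower (blue, left) in cTreg than in Tnaive, in percent, with the number tested in parentheses and dashed lines at the shares over all tested genes (7.91% and 4.29%). The Treg core list reaches 100% higher, and the list for quiescence and the naive state lies furthest left among lists of more than 20 genes.

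Homing genes differed within the shared gate. Of 30 recirculation genes 9 were higher and 2 lower, with a median log2 fold change of 0.42, and 1 was lower without any 1 of the 4 libraries. Ccr6, the receptor for CCL20, had 110 and 93 reads in the cTreg libraries and 1 read in Tnaive, a ratio of 194 (95% exact interval 34.5 to 7709), and Cxcr5, the receptor that leads cells to B cell follicles, was at 21.4 and 20.1 against 3.26 and 2.30 CPM. Both stayed under their eTreg levels, 82.3 ± 7.45 CPM for Ccr6 and 152 ± 10.3 CPM for Cxcr5. P2ry10, a receptor for lysophospholipids, was at 211 and 199 CPM in cTreg and 95.3 and 80.2 CPM in Tnaive. Among integrins, Itga6 (416 and 408 against 283 and 266 CPM) and Itgb1 (103 and 116 against 63.0 and 60.3 CPM) were higher and Itgb3 lower (187 and 175 against 288 and 301 CPM). Itga4 (809.9 and 794 against 582 and 571 CPM) and Itgal (961 and 940.4 against 851 and 805 CPM) did not pass the test. Itgae, which encodes the chain that binds E-cadherin, was higher in cTreg (15.3 and 18.7 against 0.917 and 0.799 CPM) while eTreg had 387 ± 11 CPM. Guidance and semaphorin genes gave 8 higher and 2 lower of 20, or 1 lower without the second cTreg or the second Tnaive library. Nrp1, which encodes the semaphorin and VEGF co-receptor neuropilin-1, was at 223 and 222 CPM in cTreg and 6.82 and 6.19 CPM in Tnaive (5.09 ± 0.22), and its relative Nrp2 at 6.96 and 8.52 and 1.73 and 0.999 CPM. Sema4f was lower (12.4 and 13.1 against 58.3 and 58.6 CPM, -2.20 ± 0.16).

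Interferon-response genes were higher or not called, at a median log2 fold change of 0.27, and 13 of 30 had an unadjusted p below 0.05. The 11 called higher were 36.7% of the list, against 12.2% of all tested genes called, and 0 were lower. The count rested on each library, since it was 6 without the first or the second cTreg library, 5 without the first Tnaive library and 3 without the second. The guanylate-binding protein gene Gbp3 led, at 72.7 and 77.1 CPM in cTreg and 14.5 and 14.7 CPM in Tnaive (2.36 ± 0.13), and Gbp6, Gbp7, Gbp2 and Gbp2b were higher too. Reads may be shared among these close paralogs. Usp18, Ifi27l2a and Isg20 were higher by less than 2-fold (0.74 ± 0.18, 0.73 ± 0.17 and 0.77 ± 0.21). Irf9 (210.4 and 208 against 182 and 174 CPM) and Stat2 (151 and 148 against 112 and 101 CPM) did not pass the test. Calls of Gbp2, Gbp6, Gbp7, Usp18, Ifi27l2a and Isg20 were lost without at least 1 library, at adjusted p up to 0.158, and those of Gbp3 and Gbp2b held in every setting tried. Helper-lineage genes gave 11 higher and 0 lower of 25 (12 had an unadjusted p below 0.05), or 44.0% called against the same 12.2%. Lymphotoxin alpha, Lta, was at 72.4 and 70.5 CPM in cTreg and 27.3 and 23.8 CPM in Tnaive, and the ligand-activated factors Ahr and Rora at 8.09 and 10.9 against 2.85 and 2.10 CPM and 21.5 and 24.0 against 11.6 and 11.8 CPM. The Th1 regulator Tbx21 did not pass the test, at 0.940 and 1.29 CPM in cTreg, 0.509 and 0.399 CPM in Tnaive and 146 ± 31.2 CPM in Teff.

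Of 29 quiescence and naive-state genes 9 were lower in cTreg and 2 higher, or 37.9% called against 12.2% of all tested genes. The median log2 fold change over the list was nevertheless -0.06. Besides Lef1, Tcf7, Il7r and Satb1 the lower genes were Dapl1, Igfbp4, Ampd1, Actn1 and Als2cl. Dapl1, a marker of resting T cells, was at 11.1 and 10.4 CPM in cTreg and 78.0 and 79.1 CPM in Tnaive (-2.87 ± 0.22), and Igfbp4, a binding protein of insulin-like growth factors, at 408 and 501 and 1185 and 1281 CPM (-1.44 ± 0.17). In both cases cTreg lay between Tnaive and eTreg, whose means were 0.143 ± 0.203 CPM for Dapl1 and 4.02 ± 0.529 CPM for Igfbp4. Sorcs2 (93 and 109.9 against 42.3 and 47.1 CPM) and Ly6c1 (94.8 and 84.5 against 68.3 and 58.8 CPM) were the 2 members higher in cTreg. The calls of Als2cl and Ly6c1 were lost without some of the libraries, at adjusted p up to 0.0558 and 0.279.

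Several genes with steep differences toward Tnaive lay outside these pathways. Pdlim4 (chr11:54054928-54069014), which encodes a PDZ and LIM domain protein of the cytoskeleton, was at 0.752 and 0.297 CPM in cTreg and 84.0 and 72.2 CPM in Tnaive (-7.17 ± 0.51, adjusted p = 1.32e-08). Abhd15 stood at 0.376 and 0.297 against 17.1 and 16.3 CPM (-5.58 ± 0.47), and App, which encodes the amyloid precursor protein, at 0.658 and 1.68 against 48.1 and 50.3 CPM (-5.39 ± 0.47). Ggt5, a gamma-glutamyltransferase that acts on leukotriene C4, was at 6.58 and 5.85 CPM in cTreg and 98.4 and 97.5 CPM in Tnaive (-3.97 ± 0.20). Adamts14, an extracellular protease, was at 1.32 and 1.19 against 22.4 and 24.7 CPM, and Amz1, a metallopeptidase gene, at 0.282 and 0.594 against 11.6 and 12.7 CPM. Lypd6b, Nme4, Nacc2, Elovl7, Phldb1 and Lrrc75b completed the group with log2 fold changes between -4.09 and -3.51. Klrd1, the CD94 chain of NK receptors, was at 0.0940 and 0.297 CPM in cTreg and 10.7 and 9.39 CPM in Tnaive (-5.62 ± 0.58). The related receptor gene Klrk1 did not pass the test, at 0 and 0.297 CPM in cTreg and 0.611 and 0.599 CPM in Tnaive. Hs3st3b1, a heparan sulfate sulfotransferase gene, and Mettl9, a histidine methyltransferase gene, were lower at 12.2 and 12.5 against 101 and 95.7 CPM and 19.3 and 22.9 against 76.0 and 83.1 CPM.

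Toward cTreg, the strongest genes outside the lineage list included Coro2a (chr4:46536937-46602202), a coronin that binds actin, at 348 and 348 CPM in cTreg and 3.06 and 1.70 CPM in Tnaive (7.19 ± 0.21, adjusted p = 3.16e-14). Hopx, a homeodomain protein that does not bind DNA itself, was at 94.9 and 105 against 9.47 and 7.79 CPM (3.53 ± 0.15), and Dst, the cytoskeletal linker dystonin, at 158 and 137 against 8.55 and 9.99 CPM (3.99 ± 0.18). Tnnt2, the cardiac troponin T gene, had 63 and 56 reads in cTreg and 1 read in Tnaive, a ratio of 114 (95% exact interval 20.1 to 4534). Myo3b, an unconventional myosin gene, had 56 and 83 reads and 1 read, a ratio of 133 (95% exact interval 23.5 to 5290.0). Dnah7a, a dynein heavy chain gene, had 65 and 62 reads in cTreg and none in Tnaive, at least 40.5-fold higher. The heparan sulfate proteoglycan gene Sdc4 was at 28.2 and 25.2 CPM in cTreg, with 3 reads over both Tnaive libraries. These intervals and bounds cover counting error only, since PCR-amplified reads are not independent molecules.

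Of 24 respiratory chain genes 0 were called by edgeR or by DESeq2 and 0 had an unadjusted p below 0.05, with a median log2 fold change of 0.00. Of 24 ribosomal protein genes 1, Rpl10, was called (-0.79 ± 0.23), and of 28 cell cycle genes 1, Cdk6, a G1 kinase gene (33.9 and 29.3 CPM in cTreg, 8.45 and 9.29 CPM in Tnaive, 1.83 ± 0.14). Glycolysis and PI3K-mTOR genes gave 4 higher and 1 lower of 33, or 15.2% called against 12.2% of all tested genes. Phlpp1, a phosphatase that acts on AKT, was at 58.2 and 56.2 against 17.3 and 15.6 CPM (1.80 ± 0.15), and the glucose transporter gene Slc2a3 at 129 and 131 against 53.8 and 59.6 CPM. Pik3ip1, an inhibitor of PI3K, was lower at 192 and 177 against 274 and 273 CPM. Chromatin genes gave 4 higher and 1 lower of 29, or 17.2% called against the same 12.2%, and the higher count was 2 without the second Tnaive library. Among them were the DNA methyltransferase gene Dnmt3a at 257 and 237 against 169.9 and 173 CPM and the demethylation enzyme gene Tet1 at 34.4 and 43.2 against 67.4 and 77.5 CPM. The calls of Rpl10 and Pik3ip1 were lost without any of the 4 libraries and that of Tet1 without 2 of them, at adjusted p up to 0.19, 0.214 and 0.113.

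All 21 tested genes of the Treg core list were called higher than in Tnaive, with a median log2 fold change of 4.73 and a range from 1.90 to 9.77. Of 33 effector Treg genes 19 were higher in cTreg than in Tnaive and 0 lower, or 57.6% called against 12.2% of all tested genes. An unadjusted p below 0.05 was seen for 20 of the 33. Their median log2 fold change was 1.83, or 1.90 with genes of few reads at their bound or count ratio. Because the list was written from genes known in effector Treg, with earlier results of these data known, its levels against eTreg are only a description. The share over all tested genes was not computed. The cTreg mean of these listed genes was under 10% of the eTreg mean for 20, and the median over the 33 was 4.16% of the eTreg mean. For example, Maf was at 21.8 and 29.2 CPM in cTreg, 6.93 and 8.69 CPM in Tnaive and 726 ± 16.3 CPM in eTreg, and Ebi3, a subunit of IL-35, had 21 and 16 reads in cTreg, none in Tnaive and 34.2 ± 1.58 CPM in eTreg. Of the 967 genes higher in cTreg than in Tnaive, 429 were lower in cTreg than in eTreg, 212 were higher and 326 were not called. Over all tested genes cTreg was called higher than eTreg for 12.3% and lower for 18.8%. Both of these comparisons use the same cTreg libraries.

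A set of 191 genes (1.56% of those tested) was called higher in cTreg than in each of Tnaive, eTreg and Teff, and 248 genes (2.03%) were called higher in Tnaive than in each of the other 3 populations. Their examples were chosen after their values were seen, by the smallest of the 3 log2 differences and a mean of at least 5 CPM. In cTreg they were led by Ntn4, which encodes the secreted guidance protein netrin-4, at 14.7 and 17.6 CPM against 0.102 and 0 CPM in Tnaive and 0.480 ± 0.408 CPM in eTreg. Selp, which encodes P-selectin, was at 11.7 and 7.13 CPM against 0 and 0.599 and 0.191 ± 0.135 CPM. Stra6, which encodes a receptor for retinol-binding protein, was at 19.7 and 18.6 CPM in cTreg, 0.407 and 0.499 CPM in Tnaive and 1.10 ± 0.606 CPM in eTreg. Acvr1c, a receptor of the activin and nodal ligands, was at 8.27 and 8.72 CPM in cTreg and at 0.611 and 0.399 CPM in Tnaive. Gata1, the erythroid and megakaryocyte factor, was at 39.8 and 49.4 CPM in cTreg, 5.70 and 7.79 CPM in Tnaive and 4.98 ± 0.287 CPM in eTreg, beside globin genes with no read. Lad1, which encodes a basement membrane protein, was at 65.9 and 63.0 CPM in cTreg against 4.89 and 4.89 CPM in Tnaive. Of the 191 genes 111 (58.1%) were also called higher in WT Treg than in Tconv and 1 was called lower. The Tnaive set was led by Adamts14, Pdlim4 and Nacc2, and 218 of its 248 genes (87.9%) were also called lower in WT Treg than in Tconv.

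**Figure D4:**
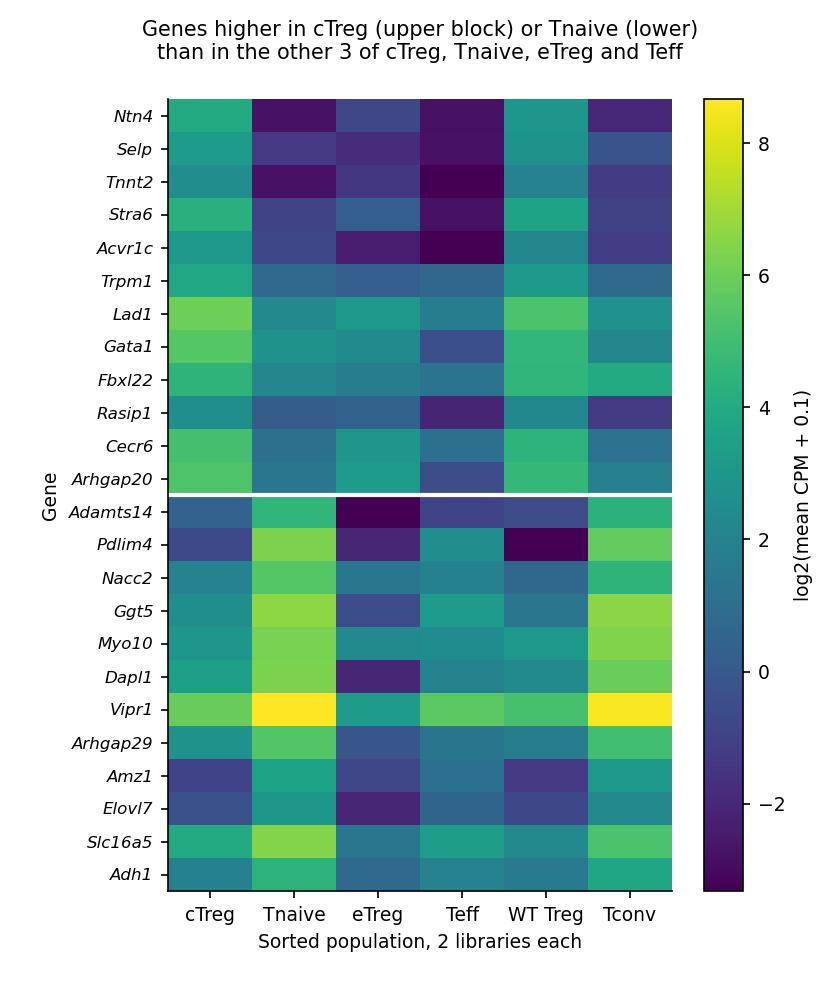
Mean level over 2 libraries, as log2(CPM + 0.1), in 6 sorted wild-type populations, for 12 genes called higher in cTreg (upper block) and 12 in Tnaive (lower block) than in each of the other 3 of cTreg, Tnaive, eTreg and Teff. The upper block is brightest in cTreg and WT Treg (Fbxl22 is highest in WT Treg), and the lower block in Tnaive and Tconv (Myo10 is highest in Tconv).

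WT Treg and Tconv were sorted on CD4 and hCD2 alone and share no library with cTreg and Tnaive. In that comparison 1475 genes (12.1% of those tested) were called higher and 817 (6.68%) lower in WT Treg. Fitted on its own 4 libraries, it gave 433 higher and 115 lower genes, so the shares below rest on the fit to all libraries. Of the 967 genes higher in cTreg, 764 were among them, which is 79.0% of the cTreg genes and 51.8% of the WT Treg genes. Of the 525 lower genes 364 were shared, 69.3% and 44.6%. Only 3 genes were called in opposite directions, Trib2 among the higher and Maged1 and Nav2 among the lower genes. Trib2, a pseudokinase gene, was at 582 and 604 CPM in cTreg and 454 and 489.5 CPM in Tnaive, but at 440.4 ± 33.8 CPM (SD) in WT Treg and 556 ± 5.54 CPM in Tconv, and its call against Tnaive was lost without any of the 4 libraries (adjusted p up to 0.264). The 2 libraries of WT Treg and of Tconv differed more from each other than those of cTreg and Tnaive, with a chi-square value (divided by its degrees of freedom) of 24.2 and 23.3 against 3.12 and 4.02.

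The effector counterparts, eTreg against Teff, also share no library with cTreg and Tnaive, and gave 1004 higher (8.21%) and 888 lower genes (7.26%). Of the 967 genes higher in cTreg than in Tnaive, 475 (49.1%) were also called higher in eTreg than in Teff, 47.3% of the eTreg genes, and 53 were called lower. The difference between the comparisons, tested as a contrast of the same model, was called for 663 genes (5.42%), with 192 (1.57%) higher and 471 (3.85%) lower in the effector comparison. Leaving out the second eTreg library gave 653 higher and 545 lower genes in the effector comparison, leaving out the first Teff library 610 and 576, and leaving out the first eTreg library 570 lower genes. The difference was called for 426 genes without the second cTreg library. Among the 967 genes it was called against the cTreg direction for 302 (31.2%) and with it for 17. These genes were chosen on the cTreg and Tnaive libraries that also enter the difference, so the 2 counts are given as a description. Of the 302 genes 161 had no call in eTreg against Teff. Il2rb was the foremost case, at 933 ± 25.6 CPM (SD) in cTreg and 26.1 ± 0.362 CPM in Tnaive but 957 ± 2.29 CPM in eTreg and 1064 ± 179 CPM in Teff, a difference between the comparisons of -5.31 ± 0.28 on the log2 scale (adjusted p = 1.31e-09). Plagl1, an imprinted zinc finger gene, went from 0.102 and 0.300 CPM in Tnaive to 17.4 and 16.0 CPM in cTreg, while eTreg and Teff had 22.4 ± 1.01 and 15.7 ± 10.4 CPM. Lif, a cytokine of the IL-6 family, and Wnt3, a Wnt ligand, were at 7.33 and 9.61 and 12.3 and 11.1 CPM in cTreg and 0.407 and 0.399 and 0.407 and 0.399 CPM in Tnaive, and their Teff means were 7.55 ± 0.233 and 6.61 ± 1.75 CPM. The Teff means of these 3 genes lay within 2-fold of the eTreg means.

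Foxp3 and Ikzf4 differed the other way, with a larger distance among effector cells (3.17 ± 0.47, adjusted p = 0.000228, and 0.74 ± 0.18, adjusted p = 0.0185) and a Foxp3 mean of 0.283 ± 0.0137 CPM in Teff beside 2.77 ± 0.603 CPM in Tnaive. Among the 53 genes with opposite calls, Nkg7, a cytotoxic granule gene, was at 2.92 and 4.16 CPM in cTreg and 0.306 and 0.200 CPM in Tnaive but at 21.1 ± 0.814 CPM in eTreg and 153 ± 32.4 CPM in Teff. Itgb1, Anxa2 and Nrp2 were among these genes as well, with Teff means of 1222 ± 87.8, 116 ± 16.1 and 5.74 ± 1.15 CPM above eTreg means of 820.1 ± 34.3, 65.7 ± 14.03 and 0.144 ± 0.0673 CPM. Of the 525 lower genes 231 (44.0%) were also lower in eTreg than in Teff, 26% of the genes lower there, and the difference was called against the direction for 96 (18.3%) and with it for 16, again from shared libraries. Epas1, which encodes the hypoxia-inducible factor HIF-2 alpha, was at 5.74 and 4.76 CPM in cTreg and 36.4 and 38.0 CPM in Tnaive, against 22.4 ± 0.469 CPM in eTreg and 17.7 ± 1.52 CPM in Teff (3.16 ± 0.29, adjusted p = 9.64e-07). Myo10, an unconventional myosin of filopodia, and Rgmb, a co-receptor of bone morphogenetic proteins, were at 76.3 and 76.4 and 40.8 and 37.8 CPM in Tnaive and at most 10 CPM in each of the other 3 population means. Pde3b was lower in both comparisons and more so among effector cells (-4.47 ± 0.18 against -3.58 ± 0.17).

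**Figure D5:**
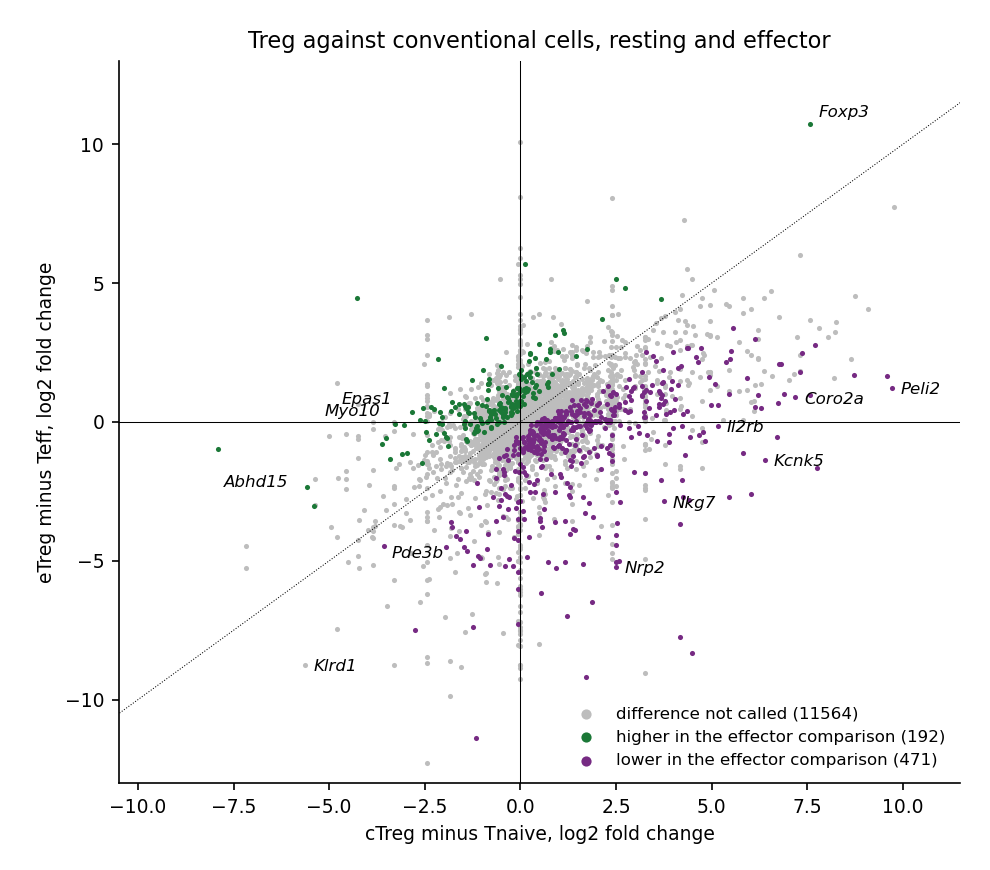
Log2 fold change of each tested gene in cTreg against Tnaive (horizontal) and in eTreg against Teff (vertical), coloured by the test of the difference between them (192 genes higher and 471 lower in the effector comparison), with a dotted line where both are equal. Il2rb, Coro2a and Peli2 lie far right near the horizontal axis, Nkg7, Nrp2 and Kcnk5 below it, and Foxp3 above the dotted line.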

How the data were processed

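Poly(A) RNA of freshly sorted mouse CD4+ T cells was sequenced from NEBNext Ultra Directional or UltraII libraries (which of them is not given per sample). The deposited values are raw counts of reads per gene symbol, aligned to mm10 with STAR 2.6.1c per the submitters' processing notes. The counting tool, its strand setting and the annotation are not given in the sources used here, so overlapping genes on opposite strands and close paralogs such as the Gbp and Klr genes are uncertain. The values of 4 more columns, which no sample label matches, were left out.

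The analysis of the counts used edgeR 4.0.16 in R 4.3.3 (filterByExpr, TMM scaling, robust quasi-likelihood fit). The model had 1 coefficient for each of 13 groups of 2 libraries over all 26 libraries, which leaves 13 residual degrees of freedom. All comparisons are contrasts of that model, and p-values were adjusted by Benjamini-Hochberg over the 12227 tested genes. The 12184 other genes had too few reads, and 99.9% or more of each library's reads fell in tested genes. The ± after a log2 fold change is an approximate SE, its size divided by the square root of F. The ± after a CPM mean is the SD of 2 libraries. With 0 reads in a group, a fold is given as a bound, with that group set to a floor of 3 counts in all. With 1 to 3 reads, the ratio of counts has a 95% exact interval. The fit was also run on counts simulated with the spread that the same model had estimated. That run cannot show what unequal spread between groups does to the calls.

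The comparison, its members and the gene lists were chosen with earlier results of these data known. Named genes are Foxp3, Il2ra, Ccr7 and Cd44, and in each direction the 15 called genes farthest from 0 in log2 fold change (higher group averaging 5 CPM or more, no overlap of libraries). They are joined by the 10 with the smallest p each way, up to 6 called and 3 uncalled genes of each list by p, and 6 each way that differ from eTreg against Teff, where they have no call. Receptor segments, mitochondrial genes and gene models without a name are left out, and some genes that the rule names are not reported here. Other called genes of a list, and genes with opposite calls, were chosen after their values were seen, to complete a count. Positions are gene spans of GENCODE M21 (mm10). Alternatives were other scaling, no filter, fewer libraries in the fit, a replicate block, DESeq2 1.42.0 and leaving out each library.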

Additional observations from a re-analysis of the deposited data

Results flagged for a closer look

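The distance of cTreg from Tnaive and that of eTreg from Teff differed for 663 genes by the edgeR test of that difference, among them the genes given here. Values here are log2 differences of the effector comparison minus the resting comparison, negative where eTreg lay lower relative to Teff than cTreg lay relative to Tnaive. Where Tnaive had at most 3 reads, as for Itgb8, Peli2, Ccr6, Kcnk5, Myo3b and Sdc4, the fitted value depends on the prior count and is no bound. Sizes are also uncertain where an effector population had few reads, as for Nrp2 in eTreg and Foxp3 in Teff, with means under 1 CPM.

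Among receptors, cytokines and their signalling genes the values were -4.93 for Il2ra, -5.31 for Il2rb, -2.26 for Il12rb1, -0.70 for Ifnar2, -5.90 for Socs2, -1.39 for Cish, -3.96 for Lif and -5.51 for Wnt3. On the same side lay -2.07 for Ctla4, -2.0 for Cd200, -2.54 for Pdcd1lg2, -1.08 for Tnfrsf4 and -7.93 for Itgb8. Each of these values was negative. Genes of adenosine, ATP and cyclic AMP gave -5.58 for Entpd1, -1.01 for Nt5e, -3.21 for P2rx7, -0.89 for Pde3b, -2.12 for Pde4a and 1.0 for Pde4d. Transcription factors and regulators gave 3.17 for Foxp3, 0.74 for Ikzf4, -4.73 for Ikzf2, -1.25 for Ikzf3, -0.82 for Irf4, 0.78 for Lef1, -1.41 for Satb1, -1.77 for Myb, -0.39 for Hivep2 and -0.94 for Rora. Further regulators gave -3.89 for Tbx21, -5.79 for Plagl1, -3.28 for Hopx and 3.16 for Epas1. Foxp3, Ikzf4, Lef1 and Epas1 had the positive values among these regulators.

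T cell receptor signalling and induced genes gave -1.43 for Gfi1, -1.06 for Themis, -1.26 for Dok2, -4.44 for Rgs1, -1.72 for Cd83, -3.20 for Dusp4, -1.16 for Cdk6 and -0.84 for Slc2a3. Homing, adhesion and guidance genes gave -5.51 for Ccr6, -3.42 for Cxcr5, -1.38 for Cd44, -1.40 for Itgb1, -3.71 for Nrp1, -7.71 for Nrp2, -4.89 for Sdc4, 1.78 for Sema4f and 2.72 for Rgmb. Genes of survival, interferon response and cytotoxic cells gave -1.18 for Bcl2, -1.14 for Bcl2l11, -2.88 for Pmaip1, -1.43 for Gbp3, -1.47 for Ly6c1 and -6.61 for Nkg7. Cytoskeletal and other genes gave -6.31 for Coro2a, -0.79 for Swap70, -1.47 for Dst, -4.68 for Myo3b, 3.20 for Myo10, 2.85 for Phldb1, -2.28 for Lad1, -3.17 for Anxa2, -7.76 for Kcnk5 and -8.50 for Peli2. The remaining genes gave -0.69 for Trib2, 3.22 for Abhd15, 2.36 for App, 1.35 for Mettl9, 2.93 for Nacc2, 2.71 for Maged1 and 3.24 for Nav2.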

How the results depend on the processing

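Size factors by relative log expression, no expression filter and DESeq2 each kept the counts of genes called higher and lower in cTreg within 1.5 times, and 0 of the 1492 called genes changed sign in any setting. Fitting only the 4 libraries of cTreg and Tnaive called 1641 higher and 1225 lower, and fitting the 8 sorted libraries called 1426 and 1031. Calls were gained by 14 of 167 named genes and lost by 0 in the first of these fits. In the second, 11 of 170 named genes gained a call and 4 lost it. Leaving out each library in turn, where the lone library is assumed to vary like the other groups, gave 663 to 745 higher and 282 to 329 lower genes, the latter a shift of over 1.5 times for each of the 4 libraries. The replicate numbers are shared by the groups, but the labels do not say that they mark pairs. Same-numbered cTreg and Tnaive libraries deviated from their group means with a correlation over genes of 0.188. With the replicate block, 1520 were called higher and 1097 lower. WT Treg against Tconv gave 433 higher and 115 lower genes from its own 4 libraries, 1696 lower with the replicate block, and 1475 and 817 as reported. eTreg against Teff gave 1576 higher and 1459 lower with the 8 sorted libraries, 1696 and 1544 with the replicate block, and 610 to 748 higher and 545 to 789 lower on leaving out each library, with the shifts over 1.5 times without eTreg replicate 2 or Teff replicate 1 for both directions and without eTreg replicate 1 for lower genes. The difference between the comparisons was called for 1183 genes with only the libraries compared, which are the same as the 8 sorted libraries, 1381 with the replicate block and 426 to 608 on leaving out each library, lowest without cTreg replicate 2. The cause of these shifts in counts was not tested. Depth limits the genes with at most 3 reads in a group, which are given by bounds or counting intervals.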
